A study of Mus musculus with 3 samples.

Results

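The homing chemokines of CCR7, CXCR5 and CXCR4, with the receptors and scavenging receptors that bind them, were followed across the stromal cells of the mouse mesenteric lymph node. The members were chosen by gene name in the scanner files and numbered 10: the ligand genes Ccl19, Ccl21a, Ccl21b, Ccl21c, Cxcl12 and Cxcl13, the atypical receptor genes Ackr4 (Ccrl1 in the files) and Ackr3 (Cxcr7 in the files), and the signalling receptor genes Cxcr4 and Ccr7. Of these, 8 had a probe of their own name, with 11 probes in all, among 28076 gene names and 41156 probes on the array. Every one of the 11 probes was well above background on all arrays, by the mark of the scanner software, so none was lost to a filter on low values.

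The 3 populations were lymphatic endothelial cells (LEC), sorted for both gp38 and CD31, blood endothelial cells (BEC), sorted for CD31 without gp38, and fibroblastic reticular cells (FRC), sorted for gp38 without CD31. All came from wild-type C57BL/6NCrl mice and shared collagenase digestion, depletion of CD45-bearing cells on magnetic beads, and a gate without CD45 or CD24. Each population had 1 single-colour array and all 3 arrays lay on 1 slide, so differences lack a replicate check and no test between populations was made. The labels give a mean sorted purity of 88%, and no age or number of mice. The error printed below is that of the scanner software for each spot, at least 0.14 on the log2 scale and 0.20 to 0.24 for a difference between arrays, which leaves out animals, sorts and amplification.

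CCL19 and CCL21 bind CCR7 and bring T cells and dendritic cells into the T cell area of the node. CXCL13 binds CXCR5 and draws B cells into follicles, and CXCL12 binds CXCR4 and acts on lymphocytes entering or moving through the node. ACKR4 and ACKR3 do not signal through G proteins but take up ligand, ACKR4 that of CCR7 and ACKR3 that of CXCR4. In mouse, Ccl21a encodes the serine form of CCL21 made in lymphoid organs, and Ccl21b and Ccl21c the leucine form known from lymphatic vessels.

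The probes that the results turn on are shown by their last 30 bases of 60, 5′ to 3′, as designed by the manufacturer. The Ccl21a probe is shown because it stands for several genes, and the Cxcl12 and Cxcr4 probes because the pair for each gene did not read alike. Capitals mark the AATAAA hexamer, the usual polyadenylation signal.
Ccl21a: ggagctagaaaacagactcaggagcccaaa
Cxcl12 variants 2 and 3: tgctttcttattcttatttttaatatatga
Cxcl12 variant 1: gatttggactttggtaattgtccctgagtc
Cxcr4 probe 1: gtaaattgAATAAAgctagccgtgatcctc
Cxcr4 probe 2: tcatccttttgggagtcatcaagcaaggat

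On mouse build mm9 as the files list it, the Ccl21a probe lies at chr4:42231835-42231894 on the forward strand. In RefSeq on build GRCm38.p6, Ccl21a lies on the reverse strand and Ccl21b on the forward strand. Which copy the listed site belongs to was not settled. The Cxcl12 probes lie at chr6:117131227-117131286 (variants 2 and 3) and chr6:117124474-117124533 (variant 1), both on the forward strand and with 6693 bases between them. The Cxcr4 probes lie on the reverse strand at chr1:130485079-130485138 (probe 1) and chr1:130485659-130485718 (probe 2). No exon or UTR annotation of that build was used here.

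No probe carried the name Ccl21b or Ccl21c. The files list the accessions of Ccl21a, Ccl21b and Ccl21c together for the Ccl21a probe, so its signal cannot be divided among these near-identical copies, and "Ccl21a" below means all of them. For Cxcl12, the probe at the far 3′ end is listed for transcript variants 2 and 3, which encode the beta and gamma isoforms, and the other for variant 1, which encodes the alpha isoform. These isoforms differ at the C-terminal end, where the gamma form binds heparan sulphate strongly.

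Each level is the log2 of a probe's signal after the 75th percentile of its array was taken as 0, and levels are compared between arrays for the same probe only. LEC had 150.1-fold more Ackr4 signal than FRC, while each of the 4 measured ligand genes was dimmer in LEC, with FRC 6.25-fold to 19.3-fold above it through the brightest probes. A correction for the spike-in slope of each array widened these log2 differences, to -4.51 for Ccl21a, -5.24 for Cxcl12, -5.50 for Ccl19 and -5.85 for Cxcl13 in LEC minus FRC, and to -7.33 for Ccl19 and -7.22 for Cxcl13 in BEC minus FRC. BEC lay close to FRC on the Ccl21a probe and on the Cxcl12 probe of variants 2 and 3, whereas Ccl19, Cxcl13 and the Cxcl12 probe of variant 1 were 47.1-fold to 55.3-fold brighter in FRC. The receptors Ccr7 and Cxcr4 were brightest in BEC. In such bulk signals, fewer cells of a type and less RNA per cell cannot be told apart.

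The marker genes largely went with the sort labels. Pdpn and Pecam1, which encode the sorted gp38 and CD31, are among them, so their differences are not independent of the gate. Of 8 fibroblast genes, Pdpn included, 7 stood at least 4-fold above LEC and all 8 above BEC on the FRC array (5.93% and 7.57% of all genes). Of 8 lymphatic genes, Pdpn and Pecam1 included, 5 stood at least 4-fold above BEC on the LEC array (3.39%). Of 8 blood endothelial genes, Pecam1 included, 4 stood at least 4-fold above LEC on the BEC array (3.38%). The lymphatic gene Flt4 was 1.50-fold higher in LEC than in BEC, and the blood endothelial gene Kdr was 1.45-fold higher in LEC. Fibroblast genes were also read on the LEC array, with Dcn at 6.32 in LEC, 3.54 in BEC and 9.87 in FRC, and Col1a2 at 4.51 in LEC, 2.67 in BEC and 9.17 in FRC. The summed fibroblast level was 153 in LEC, 42.8 in BEC and 2748 in FRC, and its part in the LEC signals of Ccl19 and Cxcl13 was not tested.

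**Figure D1:**
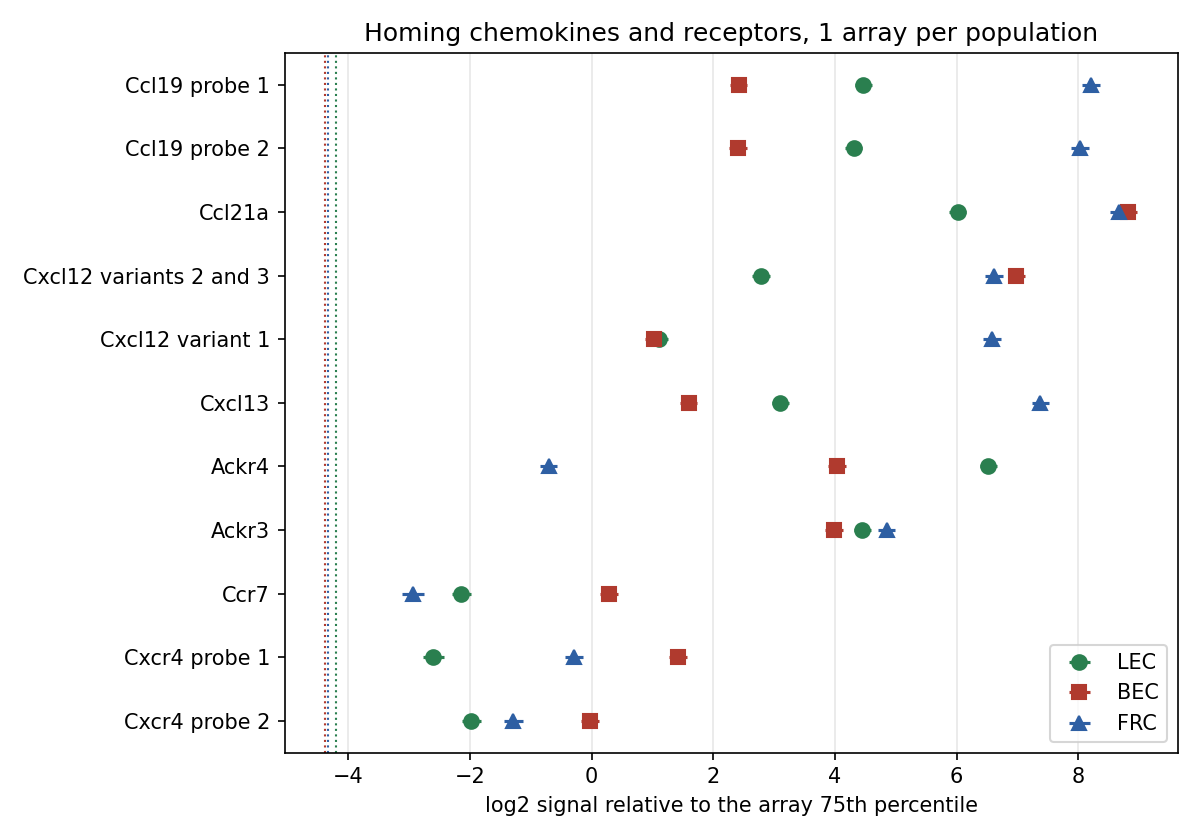
Log2 signal relative to the 75th percentile of the array (x axis) for each of the 11 probes (rows) in LEC (circles), BEC (squares) and FRC (triangles), 1 array each, with bars for the error of the scanner software. Dotted lines mark the lowest signal well above background on each array, and every probe lies to the right of them; Ccl19, Cxcl13 and the variant 1 probe of Cxcl12 stand highest in FRC, and Ackr4 highest in LEC.

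A gene was called apart at 4-fold, over genes with a probe well above background on either array, each gene standing for its brightest probe. Between LEC and FRC, 6 of the 8 measured members were apart, where 10.8% of 18440 genes were: 1 higher in LEC (4.89% of all genes) and 5 higher in FRC (5.93%). The median log2 difference of LEC minus FRC was -2.47 over the members and 0.03 over all genes. Between BEC and FRC, 4 of 8 were apart, where 14.2% of 18830 genes were: 2 higher in BEC (6.59%) and 2 higher in FRC (7.57%). The median was 0.26 over the members and 0.09 over all genes. Cxcl12 was not apart here through its brightest probe. With the median over the probes of a gene, 5 members were apart, 2 higher in BEC and 3 in FRC. Of the same 18830 genes, 3419 were then apart, 1582 higher in BEC and 1837 in FRC. Between LEC and BEC, 6 of 8 were apart, where 6.78% of 18322 genes were: 2 higher in LEC (3.39%) and 4 higher in BEC (3.38%), with a median of -0.98 over the members and -0.07 over all genes. The members were chosen for their known role in this tissue, so these shares describe the list and test nothing.

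**Figure D2:**
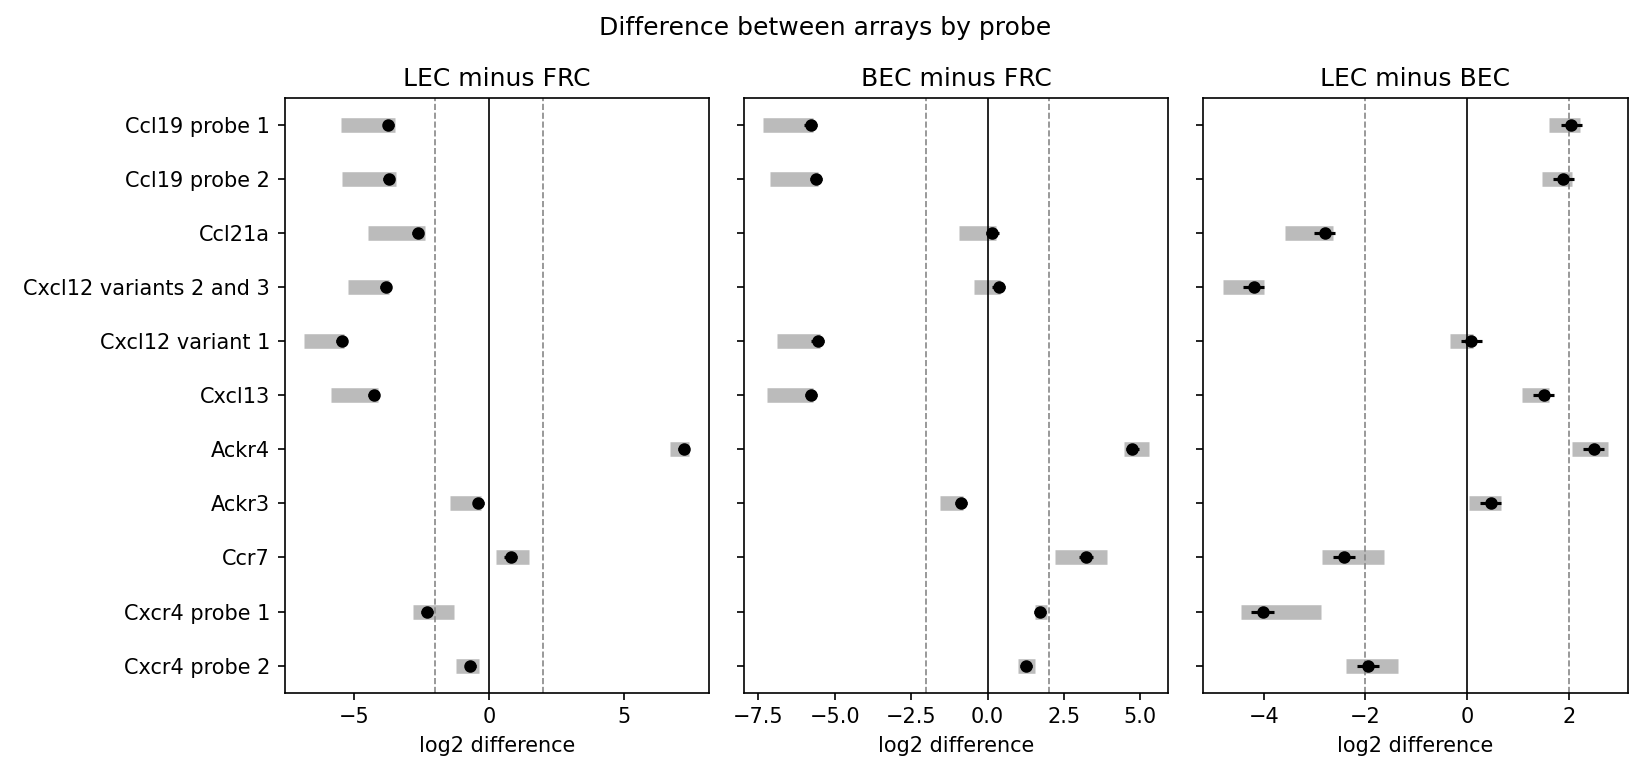
Log2 difference (x axis) for each probe (rows) in the 3 comparisons between populations, with bars for the error of the scanner software, grey bands for the lowest and highest value over the other scalings and corrections tried, and dashed lines at 4-fold. No called difference changes side, while the bands of Ccl21a and of the Cxcl12 probe of variants 2 and 3 cross 0 in BEC minus FRC, as does that of the variant 1 probe in LEC minus BEC.

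Ccl19, the CCR7 ligand of T zone reticular cells, was measured by 2 probes. Both probes are also listed for further predicted transcripts, whose part in the signal was not separated. The first read 4.47 in LEC, 2.42 in BEC and 8.21 in FRC, and the second 4.31 in LEC, 2.41 in BEC and 8.02 in FRC. FRC stood far above both endothelia on either probe, and LEC above BEC. LEC lay 13.4-fold and 13.1-fold below FRC on the 2 probes, and BEC 55.3-fold and 48.9-fold below it. LEC exceeded BEC by 4.14-fold and 3.72-fold, so the 4-fold line ran between the probes, and the log2 difference of the first ranged from 1.62 to 2.22 over the other scalings. The probes agreed within 0.18 (log2) in each comparison, less than the software error of 0.29 for such a gap.

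Ccl21a followed a different order from Ccl19, although both encode ligands of CCR7. Its probe read 6.02 in LEC, 8.82 in BEC and 8.66 in FRC. BEC and FRC lay together, with a BEC minus FRC difference of 0.16 ± 0.20 (software error), which is not beyond the error and took either sign over the scalings (-0.93 to 0.28). LEC lay below both, by 6.97-fold against BEC and 6.25-fold against FRC. The same BEC array had high signals for the genes of high endothelial venules, the vessels through which lymphocytes enter. All 5 listed markers stood at least 4-fold above FRC there, where 6.59% of all genes did. Glycam1, a ligand of L-selectin, read 7.78 in LEC, 9.49 in BEC and 2.87 in FRC, and Fut7, which builds such ligands, 1.38 in LEC, 5.34 in BEC and -1.52 in FRC. The summed level of the 5 was 238 in LEC, 822 in BEC and 15.6 in FRC, in units of the 75th percentile. In LEC and BEC most of it came from Glycam1. The part of cells of such venules in the Ccl21a signal of BEC was not tested.

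Cxcl13, the follicle chemokine, read 3.11 in LEC, 1.60 in BEC and 7.38 in FRC. Both endothelia lay below FRC, LEC by 19.3-fold and BEC by 55.0-fold. LEC was 2.85-fold above BEC, beyond the software error but short of 4-fold. Its pattern over the arrays was close to that of Ccl19, at a distance of 0.44 (log2, over 3 arrays after each gene was centred on its own mean), the smallest between any members. Ccl21a lay 4.48 from Ccl19 on the same measure.

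Genes known from follicular dendritic cells and from the marginal reticular cells beneath the subcapsular sinus, which make CXCL13, were also present on the FRC array. Of 7 such markers, 4 were called higher in FRC against LEC, and 2 against BEC, where 1 (Madcam1, also a venule gene) was higher in BEC. Over all genes, 5.93% were higher in FRC against LEC, 7.57% in FRC against BEC and 6.59% in BEC against FRC. Cr2, the complement receptor of follicular dendritic cells and B cells, read 0.18 in LEC, -1.77 in BEC and 4.09 in FRC. Tnfsf11, which encodes RANKL and marks marginal reticular cells, read -3.10 in LEC, -4.75 in BEC, where it was not well above background, and 1.96 in FRC. Fcer2a and Fcgr2b were not called in any comparison, and Fcgr2b was brightest in LEC. The summed level of the 7 markers was 159 in LEC, 361 in BEC and 832 in FRC, most of it from Mfge8 and Enpp2. That of the other 5 was 14.5 in LEC, 24.5 in BEC and 29.8 in FRC, and in BEC most of it came from Madcam1. Of the 5 B cell genes reported, Cd79a, Cd79b and Ms4a1 read -4.00, -0.81 and -0.78 in FRC, and Cd22 and Pax5 were not well above background there. How far cells of these kinds carried the Cxcl13 signal was not tested.

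Cxcl12 gave different answers through its 2 probes. The probe of variants 2 and 3 had a processed intensity of 1843 in LEC, 45603 in BEC and 37955 in FRC, and the probe of variant 1 had 576 in LEC, 732 in BEC and 36980 in FRC. As log2 levels, the first read 2.78 in LEC, 6.98 in BEC and 6.62 in FRC, and the second 1.10 in LEC, 1.02 in BEC and 6.58 in FRC. BEC thus lay beside FRC on one probe and beside LEC on the other.

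Through variants 2 and 3, BEC minus FRC was 0.36 ± 0.20 (software error), not called, with a range of -0.43 to 0.42 over the scalings. Through variant 1, FRC was 47.1-fold above BEC. The gap between the probes was 5.92 ± 0.29 (software error) on the log2 scale. Among 4914 genes with several probes well above background on both of these arrays, the median gap between the lowest and highest probe was 0.55, and 12 genes (0.244%), Cxcl12 included, had a gap as large. LEC was low on both probes, 14.3-fold and 44.5-fold below FRC. LEC was 18.4-fold below BEC through variants 2 and 3, whereas through variant 1 LEC minus BEC was 0.08 ± 0.20. Any single value for Cxcl12 in BEC therefore depends on the probe: the median over both gives a BEC minus FRC difference of -2.60.

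**Figure D3:**
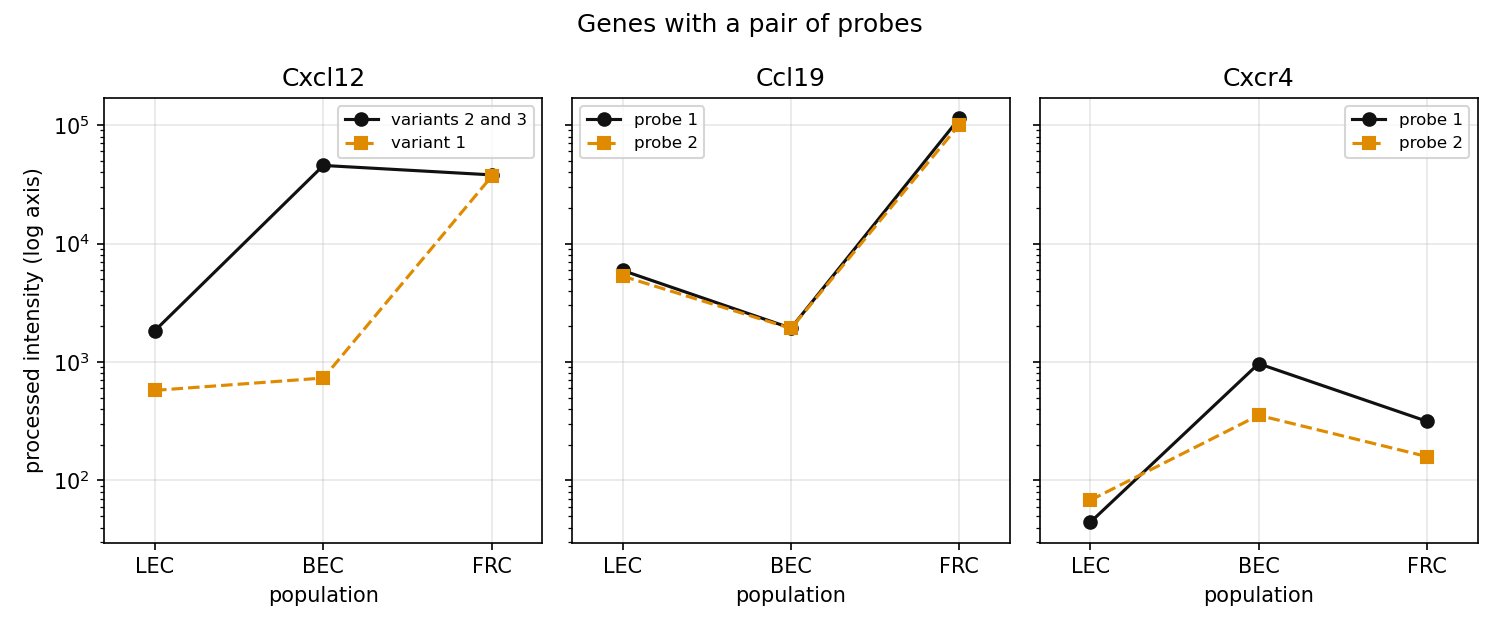
Processed intensity on a log axis (y) in LEC, BEC and FRC (x) for the 3 genes with a pair of probes, each line 1 probe and each point 1 array. The Cxcl12 probes differ in the step between BEC and FRC, which is nearly flat for variants 2 and 3 (45603 and 37955) and steep for variant 1 (732 and 36980), while the Ccl19 probes overlap on all arrays and the Cxcr4 probes keep their order of BEC, FRC and LEC.

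Perivascular cells, which are known to make CXCL12, were read through 6 markers. Their summed level was 61.6 in LEC, 85.6 in BEC and 60.1 in FRC, and without Mcam it was 55.6 in LEC, 44.3 in BEC and 59.4 in FRC. BEC exceeded FRC by 61.4-fold in Mcam, which endothelium also expresses, while Rgs5 and Des were 4.57-fold and 4.02-fold higher in FRC. Against LEC, BEC was 4.59-fold higher in Notch3 and 5.11-fold lower in Rgs5. Acta2, the smooth muscle actin gene, read 5.67 in LEC, 5.17 in BEC and 5.48 in FRC. It made up most of the sum without Mcam on each array and was not called in any comparison. The part of such cells in either Cxcl12 probe was not tested.

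Among the scavenging receptors, Ackr4 read 6.52 in LEC, 4.03 in BEC and -0.71 in FRC. The populations were well apart, in the order LEC, BEC, FRC. LEC was 5.63-fold above BEC and 150.1-fold above FRC, and BEC was 26.7-fold above FRC. The LEC minus FRC difference exceeded that of 99.9% of the genes compared. Lymphatic markers were on the BEC array too. BEC exceeded FRC by 4-fold or more in 7 of 8 (6.59% of all genes), which include the endothelial genes Pecam1 and Cdh5. The excess was 16.3-fold in Lyve1 and 8.27-fold in Prox1. The summed level of the 8 was 261 in LEC, 149.8 in BEC and 2.91 in FRC. In BEC most of that sum came from Cdh5, which read 5.76 in LEC, 6.83 in BEC and 0.38 in FRC. Prox1, which defines lymphatic identity, stood 16.5-fold above BEC on the LEC array. The part of lymphatic cells in the Ackr4 signal of BEC was not tested.

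Ackr3, the scavenger of CXCL12, read 4.45 in LEC, 3.99 in BEC and 4.85 in FRC, all within 4-fold. FRC was 1.32-fold above LEC and 1.82-fold above BEC, and LEC 1.38-fold above BEC. LEC minus FRC was -0.40 ± 0.20 and LEC minus BEC 0.46 ± 0.20 (software error), and LEC minus BEC came down to 0.03 without scaling between arrays. The spike-in slope correction took LEC minus FRC to -1.43 and BEC minus FRC to -1.54, still short of 4-fold. The LEC minus FRC value lay below the median of all genes but above 29.0% of them.

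The signalling receptors were read next. Ccr7, the receptor for CCL19 and CCL21, read -2.14 in LEC, 0.29 in BEC and -2.93 in FRC. BEC stood above both others, 5.37-fold over LEC and 9.33-fold over FRC. LEC was 1.74-fold above FRC, with signals of 60.9 and 50.6 against a lowest signal well above background of 14.6 and 19.7. Cxcr4, the receptor for CXCL12, read -2.60 in LEC, 1.42 in BEC and -0.29 in FRC on probe 1, and -1.98 in LEC, -0.02 in BEC and -1.28 in FRC on probe 2. Both probes gave the order BEC, FRC, LEC, with different sizes. BEC was 16.2-fold above LEC on probe 1 and 3.87-fold on probe 2, and 3.29-fold and 2.39-fold above FRC. FRC exceeded LEC by 4.94-fold on probe 1 and by 1.62-fold on probe 2, so its call rested on the probe. With the normexp background correction, which compresses dim signals, LEC minus FRC of Cxcr4 probe 1 was -1.31 and LEC minus BEC of Ccr7 -1.64, both short of 4-fold. The same correction took BEC minus FRC of Ccr7 from 3.22 to 2.21 and LEC minus BEC of Cxcr4 probe 1 from -4.02 to -2.87, both still beyond 4-fold. Cxcr5, the receptor for CXCL13 and no member, read -2.24 in LEC, 0.18 in BEC and -3.51 in FRC, with BEC 12.9-fold above FRC and 5.33-fold above LEC.

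Lymphocytes are among the cells that bear these receptors, and leukocyte markers were highest on the BEC array in many cases. Over all genes compared, 6.59% were called higher in BEC against FRC. Of 5 general leukocyte markers, all well above background on every array, 3 were called higher in BEC against FRC: Ptprc, which encodes the sorted-out CD45, by 6.04-fold, Cd52 by 4.47-fold and Coro1a by 4.30-fold. Their summed level was 8.82 in LEC, 23.2 in BEC and 5.58 in FRC. Of the 4 B cell markers compared, 2 were called higher in BEC against FRC, Cd79b by 12.2-fold and Cd79a by 7.70-fold, and the summed level of the 5 genes reported was 3.30 in LEC, 8.64 in BEC and 1.25 in FRC. The T cell markers summed to 2.96 in LEC, 4.43 in BEC and 1.53 in FRC, and 2 of the 5 compared were called higher in BEC against FRC, Cd3d by 4.92-fold and Lck by 6.58-fold. Of the others, Cd3g and Cd2 were not called, Cd3e was 1.49-fold higher in FRC, and Lck itself was brightest in LEC. Pax5 and Cd28 were not well above background on any array. The 7 myeloid markers summed to 13.7 in LEC, 7.43 in BEC and 6.69 in FRC. The parts of leukocytes and of the endothelial cells themselves in the Ccr7, Cxcr4 and Cxcr5 signals were not tested.

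**Figure D4:**
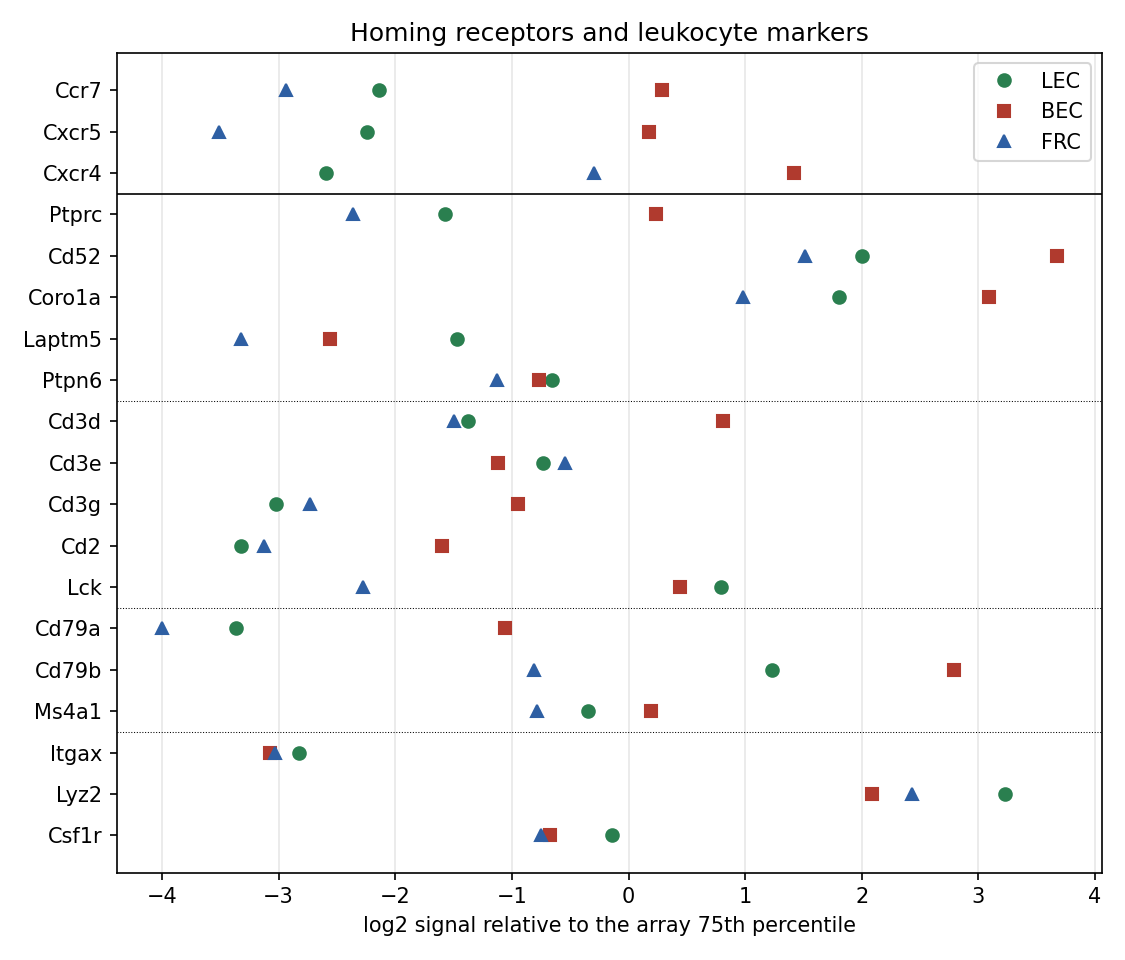
Log2 signal relative to the 75th percentile of the array (x axis) in LEC (circles), BEC (squares) and FRC (triangles), 1 array each, for Ccr7, Cxcr5 and Cxcr4 (above the solid line, Cxcr4 by probe 1) and for general leukocyte, T cell, B cell and myeloid markers (blocks below it). The BEC array is highest for all 3 receptors and for Ptprc, Cd52, Coro1a, Cd3d, Cd79a and Cd79b, and not for Cd3e, Lck, Laptm5 or Lyz2.

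The other genes of the pathway were read from lists by role, beside the shares of all genes called: 4.89% higher in LEC and 5.93% higher in FRC between those, and 6.59% higher in BEC and 7.57% higher in FRC between those. Of 9 other chemokine receptors, 4 of the 8 compared were called higher in LEC against FRC and 3 in BEC against FRC, with none called higher in FRC (medians 1.72 and 1.03, against 0.03 and 0.09 over all genes). Ackr2, a scavenger of inflammatory CC chemokines, read 4.91 in LEC, 2.11 in BEC and 2.49 in FRC, and LEC was 6.96-fold above BEC. Ackr1, which carries chemokines across venules, read 2.37 in LEC, 5.30 in BEC and 1.34 in FRC, and BEC was 15.6-fold above FRC. The atypical receptors thus differed in where they were brightest, Ackr4 and Ackr2 in LEC, Ackr1 in BEC and Ackr3, by under 4-fold, in FRC.

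The lymphotoxin beta receptor and non-canonical NF-kB are known to drive Ccl19, Ccl21 and Cxcl13 in lymphoid stroma. Ltbr, the receptor itself, read 2.71 in LEC, 3.55 in BEC and 3.16 in FRC, and Relb and Nfkb2, its transcription factors, read 4.93 and 3.59 in LEC, 3.95 and 2.79 in BEC, and 3.38 and 1.97 in FRC. None of these 3 was 4-fold apart in any comparison. Of this list, 3 of 20 genes were called higher in LEC and 1 in FRC (median of LEC minus FRC 0.79), and 2 of 21 were called higher in BEC and 1 in FRC (median of BEC minus FRC 0.51). The counts of 1 higher in FRC are at or below the share of all genes. Tnfrsf11a, which encodes the RANKL receptor RANK, stood above FRC by 127.7-fold in LEC and 34.4-fold in BEC, whereas its ligand gene Tnfsf11 was brightest in FRC, with LEC 33.4-fold and BEC at least 80.7-fold lower. Ltb, which encodes lymphotoxin beta, read 6.56 in LEC, 4.21 in BEC and 2.19 in FRC.

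Of 12 enzymes known to trim chemokines, 2 of 11 were called higher in LEC and 3 in FRC (median of LEC minus FRC -0.28), and 1 of 11 was called higher in BEC and 5 in FRC (median of BEC minus FRC -1.35). Dpp4, the dipeptidyl peptidase that inactivates CXCL12, was brightest in FRC, with LEC 24.2-fold and BEC 18.6-fold lower, and so was Mmp2, a gelatinase that also cleaves CXCL12, with LEC 40.6-fold and BEC 88.8-fold lower. Mmp9 was instead brightest in LEC, at least 142-fold above BEC and 21.8-fold above FRC. Among 14 genes of receptor signalling and desensitisation, 2 were called higher in LEC and in BEC against FRC and none lower (median of LEC minus FRC 1.02, of BEC minus FRC 0.90). These were Rgs16 (10.9-fold in LEC, 7.35-fold in BEC) and Rgs2 (10.8-fold in LEC, 4.12-fold in BEC), whose products shorten G protein signals. Gnai2, the G protein subunit that couples these receptors, read 5.77 in LEC, 4.39 in BEC and 4.46 in FRC.

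Heparan sulphate holds CCL21 and CXCL12 on cell surfaces. Of 12 genes for its synthesis and core proteins, 2 were called higher in LEC and 1 in FRC, and 2 higher in BEC and 2 in FRC (median of LEC minus FRC -0.05, of BEC minus FRC -0.14). The 1 of 12 in FRC against LEC is near the share of all genes. The core proteins differed by population: for the syndecan gene Sdc2, LEC lay 17.2-fold and BEC 40.0-fold below FRC, for the glypican gene Gpc1 LEC lay 6.13-fold above FRC, and for the perlecan gene Hspg2 BEC lay 6.36-fold above FRC. The 5 synthesis genes other than Ext1 differed by at most 1.61-fold in any comparison, and LEC lay 3.70-fold below FRC in Ext1.

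For the ligand and atypical receptor genes measured, the nearest genes were taken from 14720 named genes as the 3 with the smallest distance over the 3 centred arrays, a description of 3 values a gene. For Ccl19 they were Atp6v0a4 (0.04), Pcdh18 (0.12) and Cr2 (0.12), and for Cxcl13 Rspo1 (0.04), Mfap4 (0.10) and Col3a1 (0.12). Atp6v0a4 read -4.52 in LEC and -6.54 in BEC, under the lowest signals well above background there. For Ccl21a they were Cdc42ep4 (0.04), Sytl4 (0.09) and Smad6 (0.12), and for Cxcl12 through variants 2 and 3 Ly6a (0.05), Alpl (0.23) and Cacnb4 (0.24). Ly6a, which encodes Sca-1, read 2.75 in LEC, 6.98 in BEC and 6.65 in FRC. For Ackr4 they were Dnah6 (0.25), Mfsd4a (0.30) and Prkcq (0.33), and for Ackr3 Megf6, Mgat2 and Olfr1474 (0.01 to 0.02). Dnah6 and Prkcq in FRC, Cacnb4 in LEC and Olfr1474 in BEC were likewise under those signals.

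**Figure D5:**
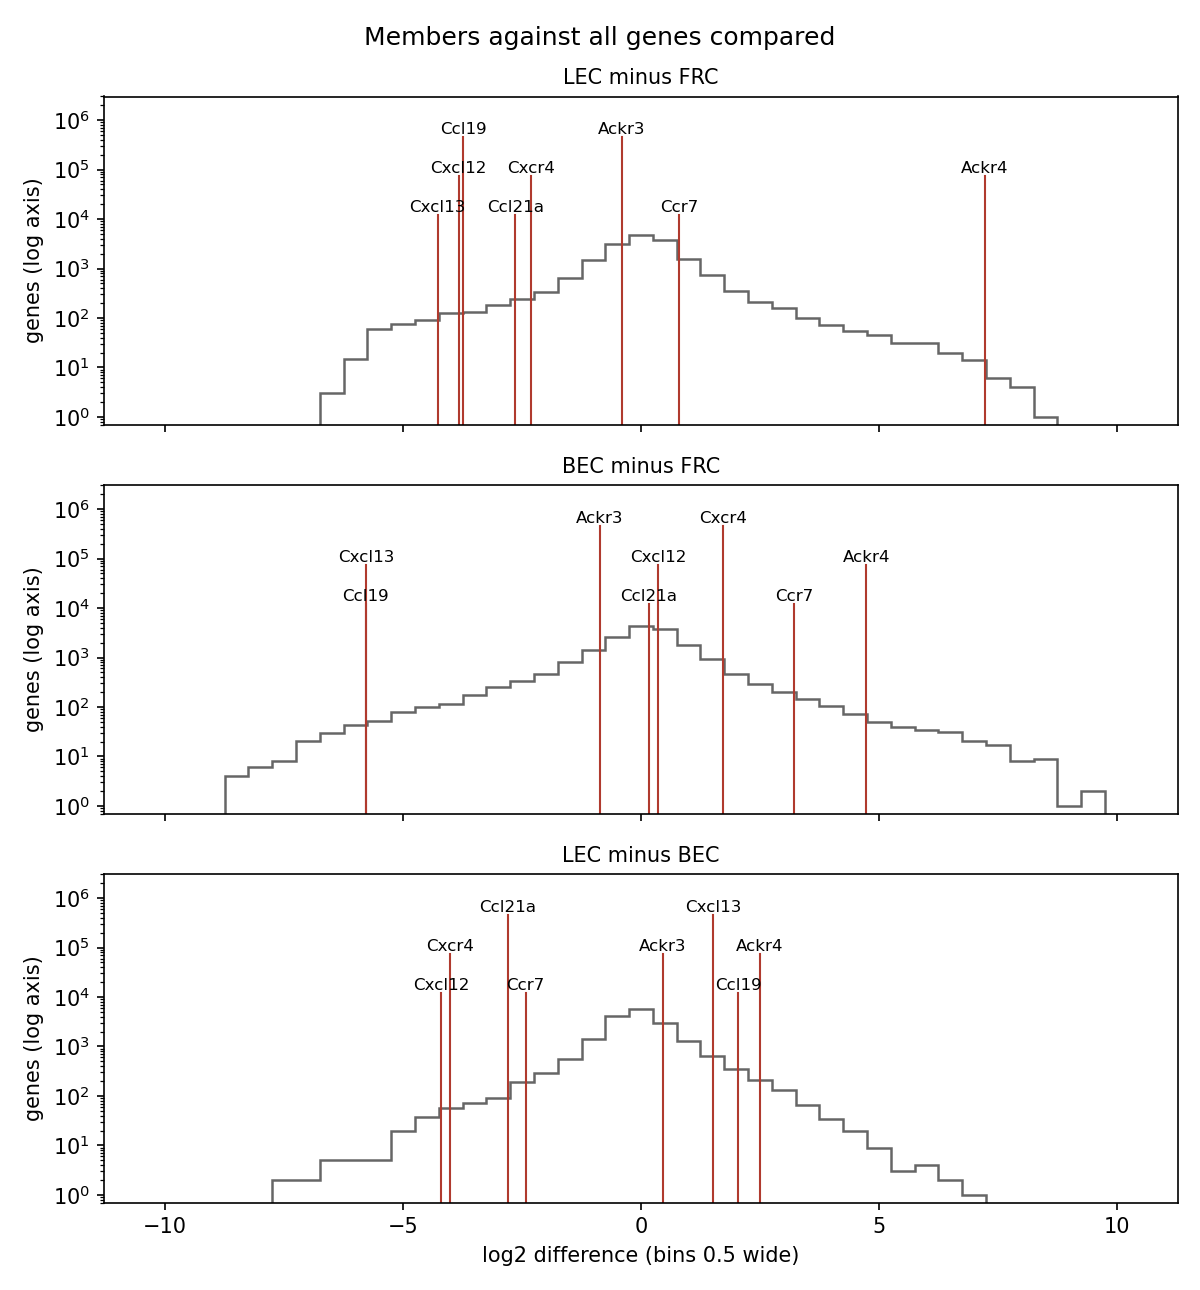
Number of genes on a log axis (y) by log2 difference in bins of 0.5 (x; outline) for each comparison between populations, with a line at each member's difference through its brightest probe (line heights only separate the names). Ackr4 lies in the right tail of LEC minus FRC at 7.23, the 4 ligand genes lie left of -2 there, and in BEC minus FRC Ccl19 and Cxcl13 lie at -5.79 and -5.78 while Ccl21a and Cxcl12 lie near 0.

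Ccl19 and Cxcl13, whose levels moved together, are shown with the 250 bases before their start sites, from RefSeq on build GRCm38.p6, 5′ to 3′ on the strand of the gene: chr4:42756366-42756615, reverse strand, for Ccl19 and chr5:95956689-95956938, forward strand, for Cxcl13. Capitals mark the TATA letters TATAAA, searched on both strands together with an NF-kB consensus motif.
Ccl19: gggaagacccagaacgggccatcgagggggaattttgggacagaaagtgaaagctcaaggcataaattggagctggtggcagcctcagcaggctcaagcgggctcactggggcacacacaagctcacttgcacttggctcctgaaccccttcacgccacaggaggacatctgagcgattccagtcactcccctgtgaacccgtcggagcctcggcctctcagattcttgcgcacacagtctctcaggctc
Cxcl13: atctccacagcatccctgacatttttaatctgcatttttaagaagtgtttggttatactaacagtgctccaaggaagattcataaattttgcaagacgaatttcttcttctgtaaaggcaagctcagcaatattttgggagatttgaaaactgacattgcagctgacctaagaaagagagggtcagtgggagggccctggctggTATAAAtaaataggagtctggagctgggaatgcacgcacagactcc

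TATAAA, held by 12.4% of 32851 promoters of the same length, starts at -46 from the start site of Cxcl13. It also occurs before Ackr4, Ackr3 and Cxcr4, and not before Ccl19, Ccl21a, Ccl21b or Cxcl12. The NF-kB consensus, held by 7.25% of all promoters, matched none of these 8 windows. Sites that depart from this consensus would be missed, so the lack of a match does not show that the pathway's factors have no site there. These are letters in a window and not measured sites. The window before Ccl21a differs at 1 of 249 bases from that before Ccl21d, a further copy in the table.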

How the data were processed

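Sorted stromal cells were profiled on Agilent single-colour mouse arrays. The submitters' processing notes name Agilent Feature Extraction 10.7.3.1. Its deposited scanner files hold processed intensity values, background-subtracted and detrended within the array and not scaled between arrays, per the file headers. The deposited series matrix holds linear intensity values by the authors, with equal column medians of 40.2 and a floor of 15. Its making is not given in the sources used, and it served as an alternative.

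Of 43379 non-control spots, outlier-marked ones were left out and log2 values of a probe's spots averaged (Python 3.11.15, pandas 2.3.3). The 75th percentile of each array (268 in LEC, 361 in BEC, 387 in FRC) was subtracted. Names were updated through RefSeq accessions (GRCm38.p6, names only). Where the dimmer array had no signal well above background for a gene, the fold is a bound against the higher of its own value and the lowest signal well above background. Normexp and quantile scaling used limma 3.58.1. The comparison step was tested on simulated data.

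Members and gene lists were chosen with earlier results of these data known. Looser NF-kB-like patterns, written after the promoters had been read, were also tried and are not reported. A B cell marker of the lists is not reported here. Sums without Mcam, or without Mfge8 and Enpp2, were chosen after the values were seen. Named were all member probes, list genes with the largest called differences or on which a member's result turns, and the 3 nearest genes. The number of arrays limits the precision. The slope of log signal on log spike-in concentration was 1.00 in LEC, 0.919 in BEC and 0.821 in FRC.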

Additional observations from a re-analysis of the deposited data

How the results depend on the processing

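Member differences were recomputed under 6 other scalings, corrections or sources (quantile, array median, no scaling, normexp, the series matrix and a spike-in slope correction). No called member difference reversed. The 3 that took either sign were Ccl21a and Cxcl12 variants 2 and 3 in BEC minus FRC and Cxcl12 variant 1 in LEC minus BEC. At an 8-fold threshold the LEC and BEC comparison kept a count of 2 members, and 452 of the 18322 genes compared. Over all genes, the counts 4-fold apart were 1996 (LEC, FRC), 2666 (BEC, FRC) and 1242 (LEC, BEC). In the same sequence of comparisons they were 1195, 1620 and 616 with normexp, 4856, 6261 and 3872 at 2-fold, and 1032, 1379 and 452 at 8-fold. Keeping dim probes gave 1894 for LEC and BEC. Without scaling, 28.2% of the LEC and FRC calls were higher in LEC, against 45.2% with scaling, and 29.4% of the LEC and BEC calls, against 50.1%. That setting moved the median of all genes to -0.50 in LEC minus FRC and LEC minus BEC. The spike-in slope correction also took Ccr7 to 1.48 in LEC minus FRC and 3.92 in BEC minus FRC. The cause of these shifts was not tested. Normexp brought Cxcr4 probe 1 in LEC minus FRC to -1.31 and Ccr7 in LEC minus BEC to -1.64, both under 4-fold. Ccl19 probe 1 in LEC minus BEC fell under 4-fold in 3 settings, to 1.62 at the lowest. Between LEC and BEC, 5 members and not 6 were apart with array median scaling, no scaling, normexp or the slope correction. Of the 18322 genes compared, 1242, 1330, 616 and 1440 were apart under these settings in turn. The median over the probes of a gene also gave 5 members, and 1699 of all genes. No paired analysis was possible because each population has 1 array.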
